A study of Homo sapiens with 12 samples.

Results

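The genes described here encode the exonucleases that trim 5.8S rRNA and the cofactors that deliver its precursors to them. They were 10 of the 61163 genes in the count tables, chosen by symbol: EXOSC10, DIS3, EXOSC2, EXOSC9, MTREX, C1D, MPHOSPH6, ERI1, ISG20L2 and XRN2. All 10 were found in the tables of both fractions and passed the filter on low counts in every comparison. By the sample labels, RNA came from HEK293T cells, an immortalised human embryonic kidney line. The cells were either wild-type (HEK WT) or carried a CRISPR-Cas9 knockout of HNRNPUL1, the gene of hnRNP UL1 (HEK UL1 KO). The paper's list of abbreviations instead gives HEK WT as wild-type HEK293, and whether the parental lines differed was not tested. Each genotype was separated into a nucleolar (NO) and a cytoplasmic-nuclear (CN) fraction, with 3 libraries for each of the 4 groups and no further treatment. Whether HEK UL1 KO grew from a single clone is not given in the sources used here, and the labels do not say whether replicates were separate cultures. The p-values therefore measure the spread between these libraries, which may be technical.

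The 5.8S rRNA is cut out of the same long precursor as 18S and 28S rRNA, and spacer remnants are then removed from both of its ends. At the 3′ end, cleavage inside the second internal transcribed spacer (ITS2) leaves a tail that the nuclear RNA exosome shortens. The exosome is a ring of subunits such as EXOSC2 and EXOSC9 that carries the nucleases DIS3 and EXOSC10. MTREX, the helicase also known as MTR4, unwinds substrates for it, while C1D and MPHOSPH6 are small proteins that bind its nuclear form. The final bases of the tail are removed by ISG20L2 and by ERI1, an exonuclease that also acts on histone mRNA ends. XRN2 works from the opposite direction, trimming the 5′ end of the 5.8S precursor and degrading excised spacer fragments. In bulk libraries such as these, fewer transcripts in each cell and a smaller share of cells that express a gene cannot be told apart.

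The substrate is shown first, because its ends are what these enzymes produce and because its copies set what the counts can separate. The capitals, at chr21:8439822-8439978 of GRCh38, plus strand, mark the 157 bases that RefSeq annotates as 5.8S in the copy RNA5-8SN1, preceded by 20 bases of ITS1 and followed by the 30 bases of ITS2 where 3′ trimming ends.
RNA5-8SN1: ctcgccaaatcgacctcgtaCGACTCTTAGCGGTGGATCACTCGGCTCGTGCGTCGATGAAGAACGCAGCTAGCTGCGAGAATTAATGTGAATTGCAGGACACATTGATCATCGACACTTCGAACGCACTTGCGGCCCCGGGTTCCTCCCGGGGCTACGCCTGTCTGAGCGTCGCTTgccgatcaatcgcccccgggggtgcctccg
The copies RNA5-8SN2, RNA5-8SN3 and RNA5-8SN5 were identical to it over the whole annotated length, with 0 edits. RNA5-8SN4 was annotated as 156 bases and differed by 1 edit, the first base. The entries RNA5-8SP8 and RNA5-8SP10, which are listed as pseudogenes, were likewise identical, and RNA5-8SP9 matched RNA5-8SN4. A read inside 5.8S therefore cannot be assigned to 1 copy, and the 7 entries of the RNA5-8SN genes were summed into a 5.8S class.

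The knockout was first checked on its target. Levels are given as CPM, a gene's counts relative to the library total, with totals scaled within each fraction by edgeR's TMM factors. HNRNPUL1 fell from 17.04 ± 1.41 to 4.80 ± 0.0582 CPM in CN (log2 fold change -1.83, SE 0.0828, edgeR adjusted p = 2.12e-07) and by 2.00 on the log2 scale in NO (SE 0.323, adjusted p = 0.00649), with no overlap in either fraction. The libraries held 37141666 to 104040073 counts, most in HEK WT CN (median 83687525) and fewest in HEK UL1 KO NO (median 39157550), and each of the 10 genes had at least 95 counts in every library. The HEK293 markers PAX2, LHX1, NES, VIM, NEFL and NEFM were detected in all 12 libraries. The HEK WT NO library of replicate 3 had a TMM factor of 1.40 beside 0.690 and 0.622 in the other HEK WT NO libraries, so that its place among them turned with the scaling. The main results that rest on it are given with and without it. Some values, such as that of HNRNPUL1 in NO and the levels per kilobase of transcript, are given with it only.

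In the CN fraction the transcripts of 6 of the 10 genes fell in HEK UL1 KO and none rose. MTREX fell to 0.523 of its HEK WT level, more than any other of the 10. DIS3 and XRN2 fell to 0.743 and 0.744, and C1D, MPHOSPH6 and EXOSC9 to between 0.762 and 0.802. The test was edgeR's quasi-likelihood F test with Benjamini-Hochberg adjustment over 27234 genes, at an adjusted p under 0.05. In the same comparison 37.9% of all genes were called, 22.3% lower and 15.6% higher, and the log2 fold change had a median of -0.32 over the 10 and 0.04 over all genes. Among the 16277 genes whose counts averaged 50 or more across the libraries, as those of all 10 did, 34.2% were lower and 16.1% higher, and the median was -0.14. Except where that level is named, the shares of all genes given below are over all genes tested, including those with fewer counts.

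**Figure D1:**
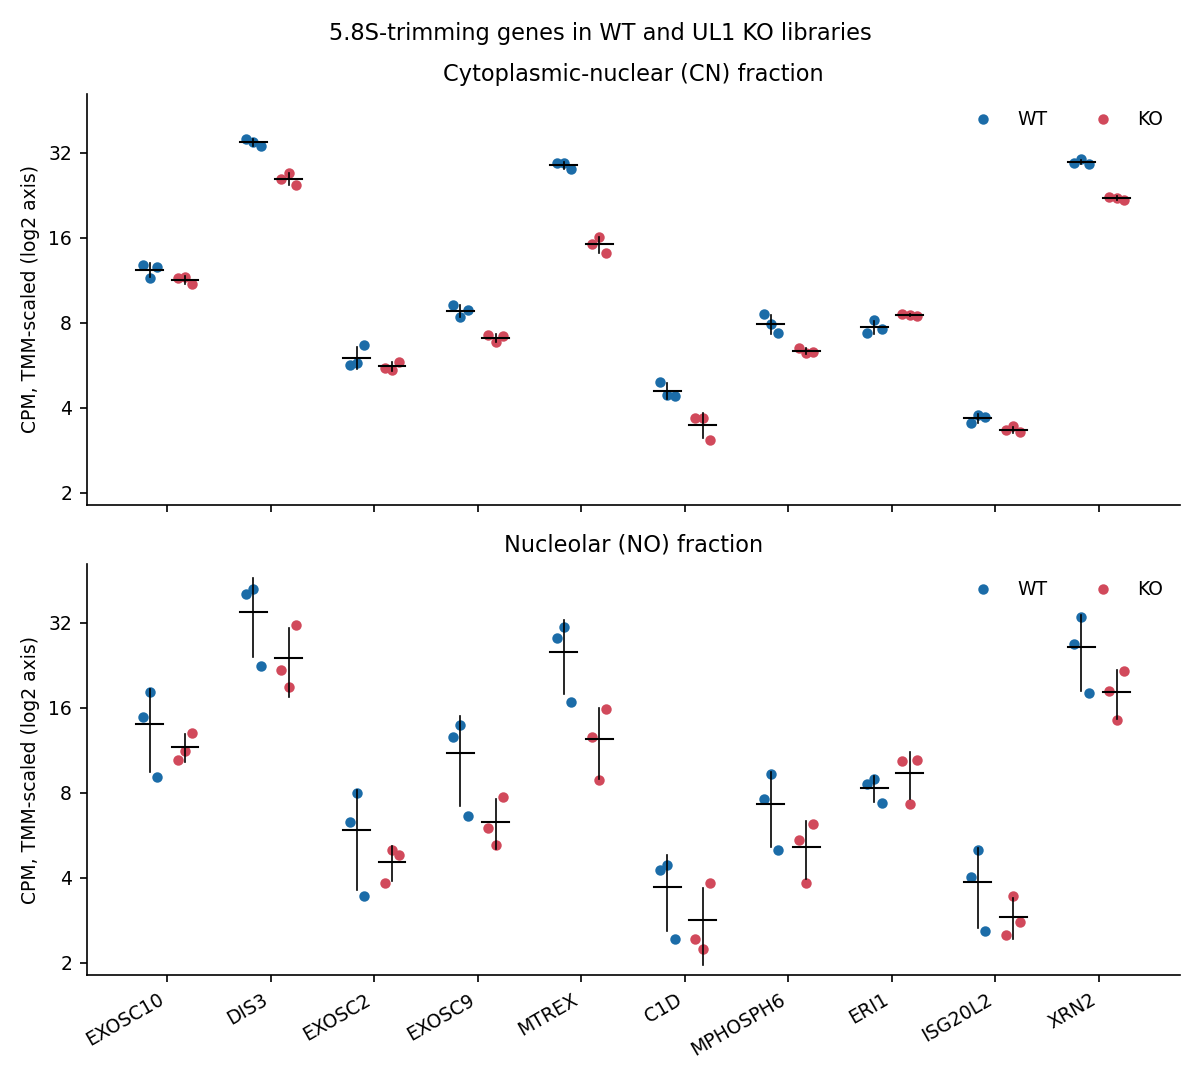
CPM of the 10 genes in each library (points, log2 axis) with the mean (line) and SD (bar) of 3 libraries, HEK WT in blue and HEK UL1 KO in red, for the CN fraction (top) and the NO fraction (bottom). In CN the MTREX libraries of HEK UL1 KO lie between 14.2 and 16.2 CPM and those of HEK WT between 28.03 and 29.5 CPM, whereas in NO the libraries of 1 genotype are spread more widely.

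MTREX (chr5:55307989-55425579, plus strand, GRCh38) was at 29.5, 29.5 and 28.03 CPM in the HEK WT CN libraries and at 15.2, 16.2 and 14.2 CPM in those of HEK UL1 KO. The highest HEK UL1 KO library was thus well below the lowest HEK WT library. The log2 fold change was -0.93 (SE 0.0742, n = 3 per genotype, edgeR adjusted p = 8.52e-06).

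Of the nucleases, DIS3 (chr13:72752169-72781900), which cuts RNA both from its end and internally, gave 35.7, 35.1 and 33.8 CPM in HEK WT and 26.0, 27.1 and 24.7 CPM in HEK UL1 KO. Its groups did not overlap, with a log2 fold change of -0.43 (SE 0.0703, edgeR adjusted p = 0.000849). EXOSC10 (chr1:11066618-11099869), the nuclease found in the nuclear exosome and enriched in nucleoli, gave 12.8, 11.5 and 12.6 CPM in HEK WT and 11.5, 11.6 and 10.96 CPM in HEK UL1 KO. These values overlapped, and the log2 fold change of -0.12 (SE 0.0734, edgeR adjusted p = 0.237) did not pass the test. XRN2 (chr20:21303331-21389825) gave 29.4, 30.4 and 29.3 CPM in HEK WT against 22.4, 22.2 and 21.8 CPM in HEK UL1 KO, and fell by 0.43 on the log2 scale (SE 0.0653, edgeR adjusted p = 0.000549).

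Of the ring subunits, EXOSC9 passed the test and EXOSC2 did not, and the difference between them was not tested. EXOSC9 (chr4:121801323-121817021), a subunit of the ring's base, fell from 8.83 ± 0.415 to 7.08 ± 0.231 CPM (SD, n = 3; log2 fold change -0.32, edgeR adjusted p = 0.00756). EXOSC2 (chr9:130693760-130704894), a subunit of the cap where RNA enters, was at 6.02 ± 0.554 and 5.60 ± 0.190 CPM (log2 fold change -0.10, edgeR adjusted p = 0.382), and its groups overlapped.

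Both small cofactors fell. C1D (chr2:68041130-68063004) gave 4.92, 4.42 and 4.40 CPM in HEK WT and 3.69, 3.69 and 3.07 CPM in HEK UL1 KO (log2 fold change -0.39, SE 0.106, edgeR adjusted p = 0.0141). MPHOSPH6 (chr16:82148162-82170224) gave 8.58, 7.89 and 7.35 CPM and then 6.52, 6.24 and 6.29 CPM (log2 fold change -0.32, SE 0.0827, edgeR adjusted p = 0.0112). Neither pair of groups overlapped. The C1D call was lost without HEK WT CN replicate 1 (adjusted p = 0.0579) or HEK UL1 KO CN replicate 3 (adjusted p = 0.0667), and the EXOSC9 call without HEK UL1 KO CN replicate 2 (adjusted p = 0.0522).

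Neither of the 3′ finishing enzymes passed the test. ISG20L2 (chr1:156721891-156728766) was at 3.66 ± 0.125 and 3.35 ± 0.0823 CPM (log2 fold change -0.13, edgeR adjusted p = 0.291). ERI1 was the one gene of the 10 with a higher mean in HEK UL1 KO. It gave 7.35, 8.18 and 7.61 CPM in HEK WT and 8.59, 8.52 and 8.45 CPM in HEK UL1 KO, without overlap, but the log2 fold change of 0.14 (SE 0.0751, edgeR adjusted p = 0.152) did not pass the test. With at least 10 counts required in every library it did, at 0.22 (adjusted p = 0.0324). In all, 7 of the 10 genes were lower in HEK UL1 KO with no overlap between the CN libraries, as were 28.1% of all genes tested.

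How far these falls hold depends on the scaling between libraries. When library totals replaced the TMM factors, the median log2 fold change of all genes in CN moved from 0.04 to 0.24. MTREX was then the only one of the 10 called (log2 fold change -0.74, edgeR adjusted p = 0.00720), and EXOSC10, EXOSC2 and ISG20L2 took values of 0.09, 0.11 and 0.07. MTREX was also the only one called in a fit of all 12 libraries (-1.02, edgeR adjusted p = 0.0108). That fit changed the scaling factors and the genes tested as well as the estimate of the spread. The counts of all genes called under both alternatives are given below, with the dependence on the processing.

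**Figure D2:**
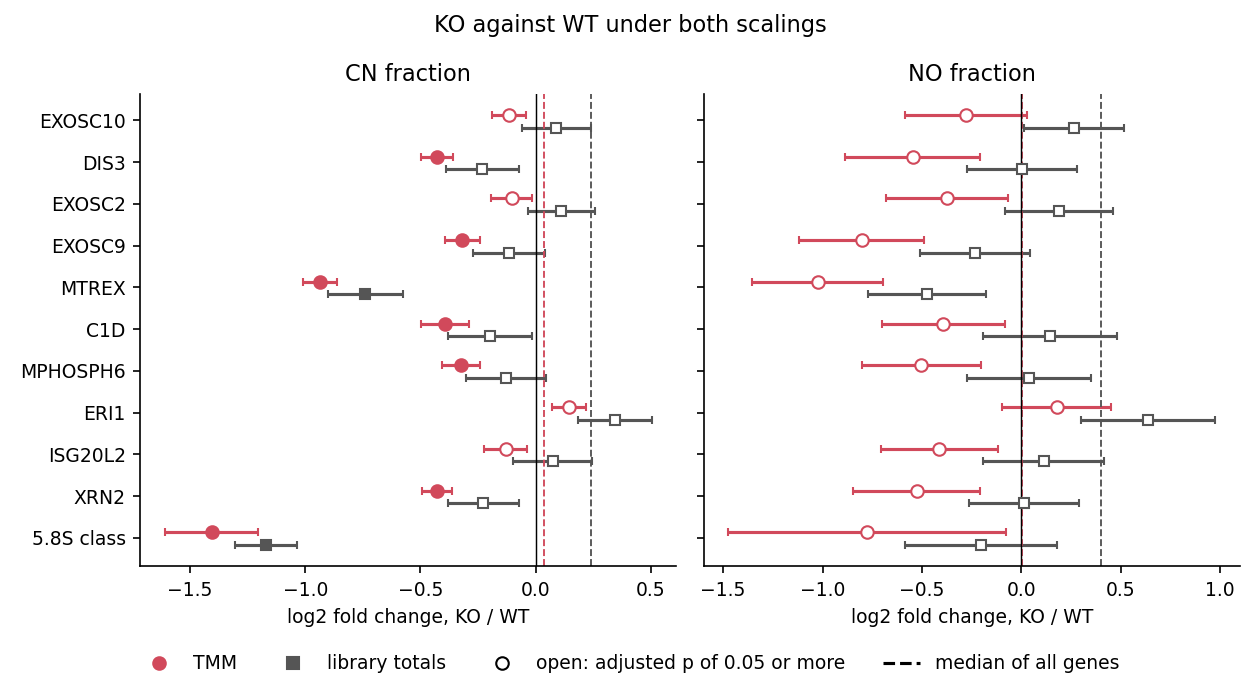
Log2 fold changes of HEK UL1 KO against HEK WT with their SE for the 10 genes and the summed 5.8S class, in CN (left) and NO (right), with TMM scaling (red circles) and library totals (grey squares). Filled symbols had an adjusted p under 0.05 and dashed lines mark the median of all genes under each scaling. In CN only MTREX and the 5.8S class stay filled under both.

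Ratios between these genes inside a library need no scaling. The count of each gene was therefore also divided by the EXOSC10 count of the same library, a measure chosen after the values had been seen. MTREX gave 2.30, 2.57 and 2.22 counts per EXOSC10 count in HEK WT CN and 1.32, 1.39 and 1.29 in HEK UL1 KO CN. In NO the ratios were 1.90, 1.69 and 1.85 against 1.21, 0.785 and 1.22. The highest MTREX ratio in HEK UL1 KO thus stayed below the lowest in HEK WT in both fractions. The log2 ratio fell by 0.82 in CN and by 0.79 in NO (exact two-sided permutation test, p = 0.1 in each, the smallest that 3 libraries against 3 allow).

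**Figure D3:**
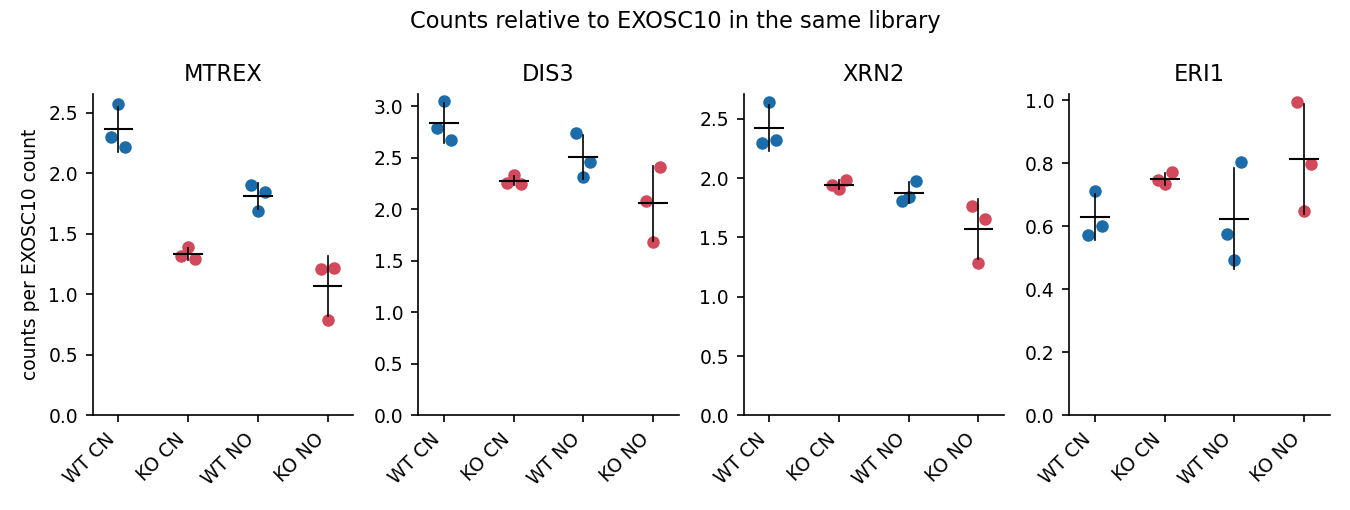
Counts of MTREX, DIS3, XRN2 and ERI1 per EXOSC10 count of the same library (points), with mean and SD of 3 libraries, HEK WT in blue and HEK UL1 KO in red. The MTREX ratio separates the genotypes in both fractions, with means of 2.36 and 1.33 in CN and 1.81 and 1.07 in NO.

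The ratio of DIS3 to EXOSC10 averaged 2.84 ± 0.196 and 2.28 ± 0.0452 in CN, without overlap, and that of XRN2 2.42 ± 0.195 and 1.95 ± 0.0408. The CN ratios of C1D, MPHOSPH6 and EXOSC9 were also lower without overlap (log2 differences of -0.28, -0.21 and -0.20), which made 6 of 9 genes with MTREX. Over all genes tested, 21.4% had a CN ratio to EXOSC10 that was lower without overlap and 29.2% one that was higher. EXOSC2 and ISG20L2 kept nearly the same CN ratios, 0.490 and 0.494 for EXOSC2 and 0.298 and 0.294 for ISG20L2, with overlapping libraries. For ERI1 the CN ratio was higher in HEK UL1 KO, 0.750 ± 0.0191 against 0.629 ± 0.0732 (SD, n = 3), again without overlap. In NO, XRN2 and EXOSC9 also had lower ratios in every HEK UL1 KO library, which 9.31% of all genes had, whereas DIS3, ERI1, C1D, MPHOSPH6, EXOSC2 and ISG20L2 overlapped. Without HEK WT NO replicate 3 the NO ratios of MTREX, XRN2 and EXOSC9 were again lower without overlap (log2 differences of -0.77, -0.23 and -0.57), against 11.7% of all genes. That of ERI1 was then higher without overlap (0.59), as it was for 48.4% of all genes, and the others overlapped.

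The genes around MTREX fell with it. Of the 10 other genes within 1 Mb that averaged 50 or more counts in CN, 8 were called lower and 0 higher, and their median log2 fold change was -0.93. They included DHX29 (-1.06, SE 0.0870, edgeR adjusted p = 1.06e-05), a helicase of translation initiation that lies directly upstream, and IL6ST (-0.86, SE 0.0821, adjusted p = 2.76e-05), a cytokine receptor subunit. PLPP1, a lipid phosphatase whose 3′ exons share 481 bases with those of MTREX on the opposite strand, had -0.88 (SE 0.107, adjusted p = 0.000121). From 5 Mb before to 20 Mb after the MTREX start, 89 of 113 genes at that level (78.8%) were called lower and 1 higher, with a median of -0.75. A second stretch, the last 3 windows of 5 Mb at the far end of the chromosome, was also low, with 51 of 91 genes (56.0%) called lower and a median of -0.50. Of the other 564 genes on the chromosome 174 (30.9%) were lower, with a median of -0.05. In NO the median was -0.71 over 126 genes of the MTREX stretch, of which 122 were below 0, -0.64 over 104 genes of the distal stretch, and 0.05 over the other 698. Only 2, 2 and 8 genes of these were called lower, in the same order. Without HEK WT NO replicate 3 these NO medians were -0.91, -0.74 and -0.0479, with 109 of the 126 genes below 0. In that fit 82, 56 and 117 genes were called lower, beside 15.3% of all genes. Some entries are copies or overlapping entries with nearly equal values, such as SERF1A (-1.03) and SERF1B (-1.034) in the MTREX stretch. Among the other genes, PCDHA1 and PCDHA@ both had 1.513 in CN, in a window where 38 of 62 entries were called higher. Such entries may share reads, so these counts are not counts of independent genes. The windows were chosen after the values had been seen, and the part that chromosomal position has in the MTREX value was not tested.

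**Figure D4:**
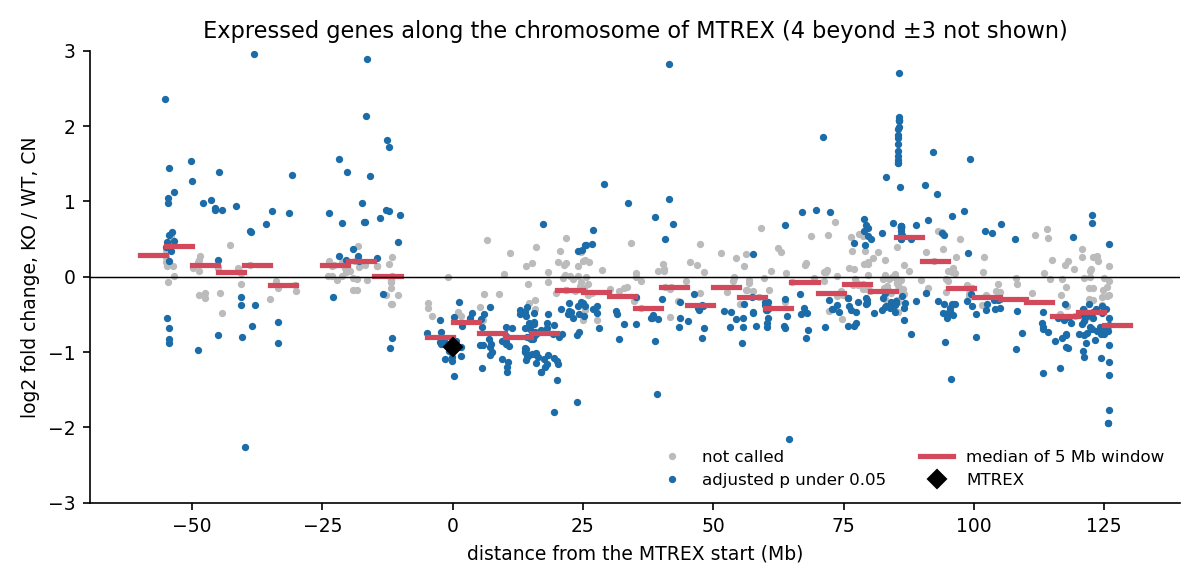
Log2 fold change of HEK UL1 KO against HEK WT in CN for 764 genes averaging 50 or more counts on the chromosome of MTREX, by distance from the MTREX start in Mb (blue, adjusted p under 0.05), with the median of each 5 Mb window of at least 5 genes (red) and MTREX itself with its SE (black). Another 4 genes lie beyond the axis limit of 3. A few entries, such as GTF2H2C_2 at -54.3 Mb, are out of positional order in the gene list. Their plotted distance may not be their true one, and they were counted among the other genes of the chromosome. The windows from 5 Mb before to 20 Mb after MTREX have medians between -0.60 and -0.80, the next window is at -0.18, and the last 3 windows are again low at -0.52, -0.47 and -0.64.

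The same count was made around each of the other 9 genes, to be read against the 34.2% lower and 16.1% higher of all genes at this level. ERI1 lay among genes that rose: of 10 neighbours in CN, 6 were called higher and 0 lower, with a median of 0.57. Around EXOSC9, 6 of 8 neighbours were called lower (median -0.44), and around DIS3 and C1D 4 of 8 and 4 of 9 (medians -0.20 and -0.32). Around XRN2 3 of 8 were lower (median -0.27), while the 5 neighbours of MPHOSPH6, which itself fell, had a median of 0.17, with 1 lower and 1 higher. EXOSC10 and EXOSC2, which were not called, had 9 of 22 and 8 of 18 neighbours called lower, and ISG20L2 5 of 30, with 3 higher. Several of these shares were near that of all genes. The part of position in these values was not tested either.

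In the NO fraction none of the 10 genes passed the test at an adjusted p under 0.05, where 0.939% of 34836 genes did. At an unadjusted p under 0.05 there were 2, MTREX and EXOSC9, beside 5574 of all genes, and DESeq2 called MTREX alone (adjusted p = 0.0371). MTREX gave 28.2, 30.9 and 16.8 CPM in HEK WT and 12.6, 8.86 and 15.9 CPM in HEK UL1 KO, the only one of the 10 whose groups did not overlap; 9.17% of all genes were lower without overlap. Its log2 fold change was -1.02 (SE 0.329, edgeR adjusted p = 0.146), close to the value in CN but with a larger error. EXOSC9 gave 12.6, 13.9 and 6.64 CPM and then 6.02, 5.22 and 7.73 CPM (-0.80, SE 0.314, adjusted p = 0.222). The other values ran from -0.55 for DIS3 to 0.18 for ERI1.

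With TMM, the HEK WT NO library of replicate 3 held the lowest HEK WT value of each of the 10 genes in NO, for example 22.5 CPM of DIS3 beside 40.7 and 42.3 CPM, and 18.1 CPM of XRN2 beside 26.9 and 33.7 CPM. With library totals the order turned: it then held the highest HEK WT value of 9 of the 10, all but EXOSC2, with DIS3 at 31.4 beside 28.1 and 26.3 CPM and XRN2 at 25.2 beside 18.5 and 20.95 CPM. Without it 9134 genes were called, 15.3% of all genes lower, and 7 of the 10 fell, from -0.66 for ISG20L2 (edgeR adjusted p = 0.0457) to -1.26 for MTREX (adjusted p = 0.00579), with EXOSC10, C1D and ERI1 not called. The 5.8S class in NO was then at -1.15 (adjusted p = 0.113). With library totals, MTREX and EXOSC9 alone stayed below 0 in NO (-0.48 and -0.24), as the median of all genes moved to 0.40.

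The genotype effect was compared between the fractions directly, as the interaction in a fit of all 12 libraries. None of the 10 genes passed (0 at an unadjusted p under 0.05, and 0 by DESeq2), where 0.114% of 37806 genes did, and the differences ran from -0.32 (SE 0.323) for EXOSC9 to 0.19 (SE 0.266) for ERI1. For MTREX the difference was 0.08 with an SE of 0.338. The separate fits of the fractions, each with its own scaling, gave -0.93 in CN and -1.02 in NO, which differ in the other direction.

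With TMM scaling, several of these transcripts were lower in NO than in CN. In HEK WT 4 of the 10 were called lower, where 20.9% of all genes were: C1D (-0.80, SE 0.193, edgeR adjusted p = 0.00810), MTREX (-0.69), XRN2 (-0.67) and MPHOSPH6 (-0.61). Leaving out single libraries gave 3 to 9 of the 10, among them 6 without HEK WT NO replicate 3 (20.8% of all genes) and 9 without HEK WT NO replicate 2 (26.4%). In HEK UL1 KO all 10 were called lower, where 35.6% of all genes were, from -0.46 for ERI1 to -0.92 for C1D. With at least 10 counts required in every library 5 of the 10 were called, beside 22% of all genes. With library totals no gene of the 10 had an adjusted p below 0.184 in HEK WT or 0.241 in HEK UL1 KO, and the median of all genes moved to 0.37 and 0.79. Both comparisons use the same libraries as those between genotypes. As a check of the fraction labels, the U3 small nucleolar RNA gene SNORD3A was 25.5-fold higher in NO than in CN in HEK WT (log2 fold change 4.67, SE 0.437, edgeR adjusted p = 0.000337), and the mRNA of GAPDH, a cytoplasmic enzyme, had -0.56 (SE 0.255, adjusted p = 0.0897).

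Per kilobase of the canonical GENCODE transcript, in CPM of the fit of all 12 libraries, XRN2 was the most abundant of the 10 in HEK WT CN at 11.3 ± 0.194. MTREX (9.45 ± 0.0607) and MPHOSPH6 (9.30 ± 0.584) followed and did not differ beyond their spread, then EXOSC9 (7.18 ± 0.415) and EXOSC10 (5.69 ± 0.430). DIS3 (4.26 ± 0.0610) and EXOSC2 (3.87 ± 0.455) overlapped, and C1D (2.64 ± 0.159), ERI1 (2.20 ± 0.1096) and ISG20L2 (1.58 ± 0.0693) were the least abundant. The place of DIS3 rests on a canonical length of 10571 bases, the longest of the 10. Without division by length it had the highest CPM of the 10 in HEK WT CN. Which transcripts these cells use was not checked. In HEK UL1 KO CN, MTREX had rank 5 in this order at 4.67 ± 0.358, below EXOSC10 at 4.96 ± 0.209, with overlapping libraries. The order in HEK WT NO again began with XRN2 and ended with ISG20L2, with SDs of up to 1.72. C1D had rank 9 there, below ERI1, the reverse of their order in HEK WT CN.

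Across the 12 libraries, the level of most of these genes moved together. The Pearson correlation of a gene with the mean of the other 9 was highest for XRN2 (0.992) and lowest for ERI1 (0.691). The points share library scaling and the difference between fractions, so the values describe a pattern only. Among 18056 other genes that averaged 50 or more counts, CAPRIN1 (0.998), CDC27, HDDC2, ZNF638 and FARSB (each 0.997) were most like the mean of the 10.

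The 5.8S gene copies were set beside the enzymes. Summed over the 7 entries, 5.8S in CN was at 10523, 10711 and 15462 CPM in HEK WT and at 5232, 4354 and 4254 CPM in HEK UL1 KO. The genotypes did not overlap, and the log2 fold change was -1.41 (SE 0.203, edgeR adjusted p = 0.000378). With library totals it was -1.17 (adjusted p = 0.000114), and with all 12 libraries in one fit -1.49, no longer past the threshold (adjusted p = 0.0605). All 7 single entries were called lower, from -1.21 for RNA5-8SN4 to -1.67 for RNA5-8SN1_1, but they share reads and are not independent. In NO the class gave 14357, 8767 and 4012 CPM against 2694, 8238 and 4920 CPM, which overlapped (log2 fold change -0.78, SE 0.699, adjusted p = 0.587).

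**Figure D5:**
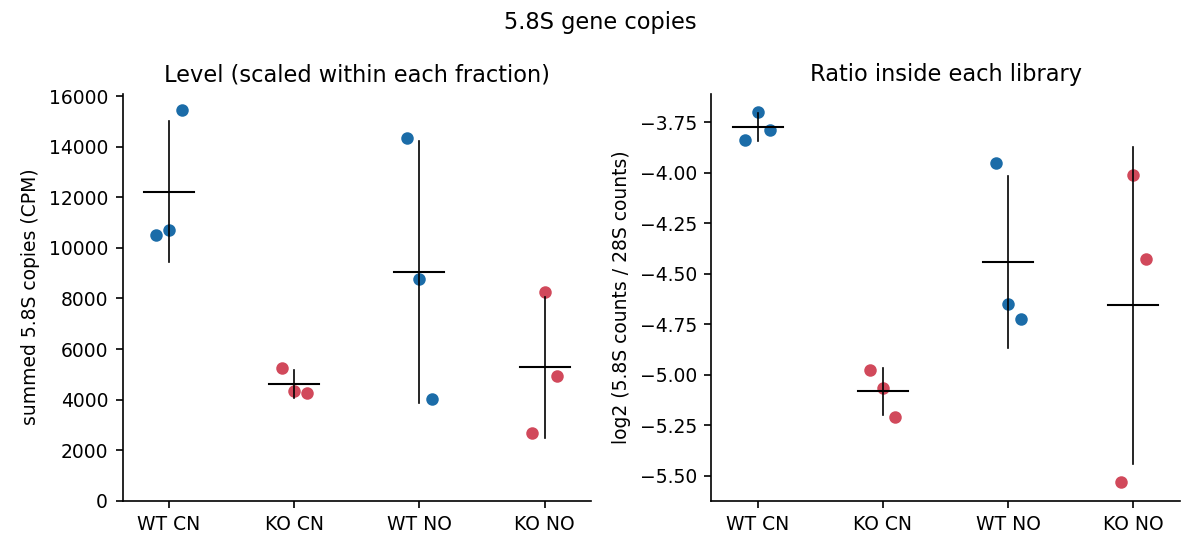
Summed 5.8S copies per library as CPM scaled within each fraction (left) and as the log2 ratio of 5.8S to 28S counts inside each library (right), with mean and SD of 3 libraries, HEK WT in blue and HEK UL1 KO in red. The genotypes separate in CN, where the mean ratio goes from -3.77 to -5.08, and overlap in NO.

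The ratio of 5.8S to 28S counts inside a library was also lower in HEK UL1 KO in CN. On the log2 scale it was -3.84, -3.70 and -3.79 in HEK WT and -4.97, -5.06 and -5.21 in HEK UL1 KO, a difference of -1.31 (exact two-sided permutation test, p = 0.1, the smallest this design allows). In NO the ratios were -3.95, -4.65 and -4.72 against -5.53, -4.01 and -4.43, with overlap and a difference of -0.22 (exact two-sided permutation test, p = 0.8). Leaving out single libraries gave -0.54 to 0.22, with -0.36 without HEK WT NO replicate 3 and positive values without HEK UL1 KO NO replicate 1 (0.22) or HEK WT NO replicate 1 (0.0301). In CN, then, MTREX transcripts and 5.8S counts were both lower in all 3 HEK UL1 KO libraries, and whether one bears on the other was not tested. Mature 5.8S and its 3′-extended precursors are not separated by these counts.

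Genes that work beside these 10 were described from 4 lists, whose counts in CN stand beside the 22.3% lower of all genes and the 34.2% lower of genes averaging 50 or more counts. Of 9 other exosome subunits and DIS3 homologues, 4 were called lower and 1 higher in CN, the extremes being EXOSC3, a cap subunit (-0.86, edgeR adjusted p = 0.000267), and EXOSC4, a base subunit (0.84, adjusted p = 0.0339). Of 11 adaptors and partners of MTREX, 8 were lower and 0 higher (median -0.40), with WDR74, which binds MTREX together with NVL, lowest at -1.28 (adjusted p = 0.000429). Of 11 factors of ITS2 cleavage and 5.8S-28S processing, 4 were lower and 1 higher, from TEX10 of the complex that cuts ITS2 (-0.66, adjusted p = 6.27e-05) to BOP1 of the PeBoW complex (0.93, adjusted p = 0.00234). Of 12 other exonucleases, 5 were lower and 0 higher, with the mitochondrial REXO2 lowest at -0.63 (adjusted p = 0.00114). The shares of the other exosome subunits, of the ITS2 factors and of the other exonucleases were thus near that of genes at this level. In NO the list medians were -0.47, -0.53, -0.47 and -0.31 in the same order, and the lowest adjusted p was that of EXOSC3 (log2 fold change -1.21, edgeR adjusted p = 0.0676). Without HEK WT NO replicate 3 they were -0.53, -0.82, -0.72 and -0.42, with 3 of 9, 6 of 11, 7 of 11 and 2 of 12 called lower beside 15.3% of all genes in that fit, and EXOSC3 was at -1.46 (adjusted p = 0.00127). WDR74 had -1.28 in NO, with the largest SE of the adaptors (0.663, edgeR adjusted p = 0.351). Between fractions in HEK WT it was at -0.09, beside a median of -0.64 for that list. Whether reads of an overlapping gene enter its counts was not checked. The lists were computed with TMM scaling only, and the shift of the median of all genes to 0.24 with library totals in CN applies to them too. Some of these extremes also lay among genes that moved alike: 15 of 18 neighbours of EXOSC3 were called lower, and 29 of 34 neighbours of EXOSC4 and 28 of 33 of BOP1 were called higher, whereas 3 of 29 neighbours of WDR74 were lower. The neighbours of EXOSC4 and of BOP1 had the same lowest and highest log2 fold change, 0.0668 and 1.999. These counts therefore probably share genes and are not separate cases.

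The promoters of the genes were compared, because several of the transcripts fell together. Sequences from 250 bases before to 50 after the start were taken from RefSeq (GRCh38.p14) for 9 of the 10 genes, 2 of which have 2 starts, and set beside 35116 promoters of the same length. No TATAAA was found on either strand in any of them (11.5% of all promoters), CCAAT was in 4 of 9 (34.6%; DIS3, EXOSC10, EXOSC2 and EXOSC9) and GGGCGG in 6 of 9 (45%). CCGGAAG was in DIS3 and ISG20L2 (10.3% of all promoters), TGACGTCA in XRN2 alone (1.85%), AAGATGGC in EXOSC2 alone (2.89%), and GCATGCGC (3.05%) and CTCGCGAG (1.02%) in EXOSC10 alone. The 4 sequences run from 150 bases before to 30 after the start, with matches on either strand to any of these motifs except GGGCGG in capitals. They are those of the gene that fell most, the nucleases DIS3 and XRN2 that also fell, and EXOSC10, which did not pass the test.
MTREX promoter: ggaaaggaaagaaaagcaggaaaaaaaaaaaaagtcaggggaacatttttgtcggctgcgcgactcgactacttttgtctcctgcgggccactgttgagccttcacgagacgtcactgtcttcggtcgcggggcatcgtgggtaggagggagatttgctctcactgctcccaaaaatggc
DIS3 promoter: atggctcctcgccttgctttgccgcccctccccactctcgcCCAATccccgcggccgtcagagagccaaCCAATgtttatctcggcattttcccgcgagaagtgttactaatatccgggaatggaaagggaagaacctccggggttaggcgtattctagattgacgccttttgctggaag
XRN2 promoter: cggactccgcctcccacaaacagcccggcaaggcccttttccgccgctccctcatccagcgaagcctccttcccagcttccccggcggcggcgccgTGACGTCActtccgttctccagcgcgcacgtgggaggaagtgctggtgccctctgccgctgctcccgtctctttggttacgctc
EXOSC10 promoter: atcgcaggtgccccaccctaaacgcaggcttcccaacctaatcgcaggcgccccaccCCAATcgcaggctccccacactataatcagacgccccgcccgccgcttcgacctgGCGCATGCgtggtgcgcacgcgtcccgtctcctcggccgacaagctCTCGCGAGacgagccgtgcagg
In order they lie at chr5:55307839-55308018 (plus strand), chr13:72781871-72782050 (minus), chr20:21303181-21303360 (plus) and chr1:11099840-11100019 (minus). The MTREX window held none of the motifs put in capitals, and no motif searched was held by all of the genes that fell. A match is a description of letters and not of a bound site.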

How the data were processed

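Raw counts per gene, deposited by the authors as 1 table per fraction, were used as given. Total RNA was sequenced without rRNA depletion (75-base single reads, CORALL kit), trimmed with Cutadapt 3.7, aligned to GRCh38 with STAR 2.7.8 with up to 20 alignments per read, and counted with featureCounts. Counting options, strand setting and annotation version are not given in the sources used here. Exons of 6 of the 10 genes overlap genes on the opposite strand (2196 bases for EXOSC10, 1180 for DIS3, 481 for MTREX), and C1D has 5 pseudogenes in the tables, so their reads may be shared. All 12 columns were matched by their labels, with 0 left over.

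HEK UL1 KO and HEK WT, and NO and CN, were compared with edgeR 4.0.16 (R 4.3.3; glmQLFit, glmQLFTest, TMM, filterByExpr with a minimum count of 10 and total of 15, Benjamini-Hochberg over all genes, called under 0.05), without a replicate block. Ratios inside a library were tested by exact permutation of the libraries, two-sided. Alternatives were DESeq2 1.42.0, library totals, TMM without rRNA genes, other filters, a replicate block, all libraries in one fit and leaving out each library. The genes named are the 10, the 5.8S entries, the lowest and highest called gene of each list, the 5 most correlated genes and the label checks. Neighbours of MTREX and other entries named from its chromosome were chosen after their values were seen. The genes and lists were chosen with earlier results of these data known. The scripts were tested on simulated counts. Lengths came from GENCODE release 44 (limma 3.58.1, Python 3.11.15, numpy 2.4.6, pandas 2.3.3, matplotlib 3.10.9).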

Additional observations from a re-analysis of the deposited data

How the results depend on the processing

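The falls of MTREX and of 5.8S in CN kept their direction under every alternative run, and MTREX was called under all of them. The 5.8S class was not called with all 12 libraries in one fit (-1.49). Of the other alternatives, library totals changed most: 19 of 50 single-gene values turned sign, and 19 of the 20 calls among them were lost. With library totals the count of the 10 genes called was 1 in CN and 0 in both comparisons of fractions, and all genes called were 10 in NO (7 higher, 3 lower, against 127 and 200 with TMM), 5434 in CN (3703 higher, 1731 lower, against 4254 and 6070), 7011 between fractions in HEK WT (6387 higher, 624 lower, against 9355 and 6139) and 0 for the interaction. Signs that turned with library totals were, in NO, EXOSC10 0.26, C1D 0.14, MPHOSPH6 0.0405, DIS3 0.00216, EXOSC2 0.19, ISG20L2 0.11 and XRN2 0.0119. In CN they were EXOSC10 0.0906, EXOSC2 0.11 and ISG20L2 0.0734. Between fractions they were EXOSC9 0.10 and ERI1 0.000846 in HEK WT, and EXOSC10 0.17, DIS3 0.0358, ERI1 0.30 and the 5.8S class 0.29 in HEK UL1 KO. For the interaction they were EXOSC10 0.17, MPHOSPH6 0.17, EXOSC2 0.0755 and ISG20L2 0.0396.

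DESeq2 called 1108 genes in NO (276 higher, 832 lower), 1 of the 10 there and 85 for the interaction. Between fractions in HEK WT it called 7 of the 10, all lower, beside 15762 of all genes (22.9% lower), and the 5.8S class had -0.96 and was called. With all 12 libraries in one fit, 37806 genes were tested. Of these, 1745 were called in NO, 4215 in CN and 24943 between fractions in HEK WT, and of the 10 genes 1, 1 and 9 (lower, as were 27.4% of all genes). The 5.8S class then had -1.18 between fractions in HEK WT. Without a filter 1190 genes were called in NO and 104 for the interaction. Between fractions in HEK WT that fit called 8 of the 10, all lower, beside 22196 of all genes (14.8% lower). With at least 10 counts in every library, 143 genes were called in NO (72 higher, 71 lower), 8759 between fractions in HEK WT, 13160 in HEK UL1 KO with 5 of the 10, and 20 for the interaction (18 higher, 2 lower). Signs that turned under that filter were EXOSC9 0.0476 between fractions in HEK WT, the 5.8S class 0.0109 in HEK UL1 KO, and EXOSC10 0.0589 and MPHOSPH6 0.0384 for the interaction. For the interaction, MTREX, DIS3 and XRN2 took -0.00711, -0.0358 and -0.0194 with TMM factors made without rRNA genes, and -0.0678, -0.0994 and -0.0810 without a filter. With TMM factors made without rRNA genes, 1 call among the 50 single-gene values was also lost. The causes of these shifts were not tested.

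No pairing by replicate number was seen: same-numbered libraries correlated at -0.05 to -0.48 in their deviations, and 0 of 12 matched best with its own number. These matches reuse the same 4 groups of 3 libraries and are not independent. They cannot show whether same-numbered fractions came from the same culture. With a replicate block 224 genes were called in NO, 8438 in CN, 9579 between fractions in HEK WT, 24640 in HEK UL1 KO and 30 for the interaction, and 0, 6, 4, 9 and 0 of the 10. The interaction of EXOSC10 was then 0.0136.

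Leaving out 1 library at a time gave 123 to 9134 genes called in NO (123 without HEK WT replicate 1, 164 and 217 without HEK UL1 KO replicates 2 and 3, 9134 without HEK WT replicate 3), 7284 to 10301 in CN, 12502 to 21118 between fractions in HEK WT, 23358 to 28533 in HEK UL1 KO, and 25 to 57 for the interaction (25 without HEK WT CN replicate 1, 26 and 27 without HEK UL1 KO CN replicates 2 and 1, 28 without HEK UL1 KO NO replicate 1). Of the 10 genes it gave 0 to 7, 5 to 6, 3 to 9 (9 without HEK WT NO replicate 2), 9 to 10, and 0 to 0. The 5.8S class ran from -1.20 to -0.24 in NO, -1.53 to -1.15 in CN, -1.50 to -0.63 between fractions in HEK WT, -0.81 to -0.0885 in HEK UL1 KO, and 0.36 to 1.26 for the interaction. The log2 ratio of 5.8S to 28S differed by -0.54 to 0.22 in NO and by -1.36 to -1.25 in CN. With 18S in place of 28S it differed by -0.28 in NO and -1.07 in CN, and with the pseudogene entries by -0.15 and -1.38. Single genes whose sign turned were EXOSC2 in CN (-0.15 to 0.0207), EXOSC9 between fractions in HEK WT (-0.46 to 0.0213), and for the interaction EXOSC10 (-0.23 to 0.20), MTREX (-0.16 to 0.30), C1D (-0.13 to 0.33), MPHOSPH6 (-0.21 to 0.19), DIS3 (-0.22 to 0.22), EXOSC2 (-0.38 to 0.14), ISG20L2 (-0.35 to 0.0699) and XRN2 (-0.13 to 0.26). The lowest count of any of the 10 genes in a library was 95, of C1D in HEK UL1 KO NO replicate 2.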

Other observations

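The 5.8S entries, which are identical or nearly so where their sequence was read, differed in their fold change in CN. RNA5-8SN1 and RNA5-8SN1_1 had log2 fold changes of -1.63 and -1.67, and the pseudogene entries RNA5-8SP8, RNA5-8SP9 and RNA5-8SP10 had -1.66, -1.64 and -1.63. RNA5-8SN2, RNA5-8SN3, RNA5-8SN3_1, RNA5-8SN4 and RNA5-8SN5 had -1.33, -1.32, -1.35, -1.21 and -1.32. The entries come from the same libraries, so their SEs do not give the error of a difference between entries. RNA5-8SN4 and RNA5-8SP9 are annotated 1 base shorter, and no sequence was read for RNA5-8SN1_1 and RNA5-8SN3_1. The split was noticed after the values were seen and was not tested. Each of these 10 entries held between 9.42 and 10.7% of all 5.8S counts, and the 3 pseudogene entries together are left out of the summed class. With all pseudogene entries in the class, which then held 17 entries, the log2 ratio of 5.8S to 28S in CN differed by -1.38 in place of -1.31.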
